A study of Saccharomyces cerevisiae with 6 samples.

Results

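Transcripts of 42 genes of purine, pyrimidine and deoxynucleotide synthesis were followed in *Saccharomyces cerevisiae* strain BJ5464 after heat shock. The genes were chosen by function, as enzymes of the de novo and salvage routes, transporters of bases and nucleosides, ribonucleotide reductase subunits and the activator BAS1. The choice was made with earlier results of these data known. All 42 had a row among the 5793 features of the deposited comparison, of which 5706 were protein-coding genes. The heat shock group was held at 37 °C for 20 min, and the optimal growth group stayed at 28 °C. Both groups had 3 libraries of polyadenylated RNA and both carried the strain's URA3 deletion, as the labels describe it. Both groups came from a single rich-medium culture that was divided before the shock, and each group's libraries are aliquots. The tests thus weigh differences against aliquot-to-aliquot spread, with no separate cultures behind them.

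The values are those of the authors' edgeR comparison of the groups. Each gene has a log2 fold change (heat shock divided by optimal growth), a mean abundance in CPM (counts scaled to a common library total) and an FDR, the p-value adjusted over all 5793 features. The table holds no value per library, so depth is unknown and no SD can be given. The error printed beside a fold change is the standard error (SE) that the fold change and its p-value imply under a normal approximation. For the 42 genes it ran from 0.044 to 0.098 on the log2 scale. A gene was called higher or lower at an FDR under 0.05. Levels in each group were derived from the fold change and the mean abundance, taking the mean abundance as the plain average of both groups, and were divided by coding length in kilobases where genes are compared.

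Purine nucleotides are built stepwise on phosphoribosyl pyrophosphate (PRPP) until inosine monophosphate (IMP) is reached, from which AMP and GMP branch off. Pyrimidines are made the other way round: the ring is closed first, joined to PRPP and then decarboxylated to UMP, the parent of UTP and CTP. Ribonucleotide reductase turns ribonucleotides into the deoxynucleotides used for DNA. In yeast, the activator Bas1, with Pho2, drives the ADE genes when adenine is short, and Ppr1 drives several URA genes when pyrimidines are short. Most RNA made by a growing yeast cell is ribosomal, and ribosome production is a large user of nucleotides.

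Most of the nucleotide genes fell after heat shock. Of the 42 genes, 35 were lower, 4 were higher and 3 were not called. Over all features 36.6% were lower and 38.6% were higher. Members lower made up 83.3% of the set and members higher 9.52%. The median log2 fold change was -0.63 for the 42 genes and 0.02 for all features. The 42 genes were abundant, and 39 of them lay above the median abundance of all features. Among the 1787 features at or above 7 in log2 mean CPM, 49.0% were lower and the median was -0.11. The 35 nucleotide genes at that abundance had 30 lower and a median of -0.65.

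The falls differed in size. A fall of at least 1 on the log2 scale, called at an FDR under 0.05, was found for 10 of the 42 genes (23.8%) and for 5.28% of all features. A further 16 fell by between 0.5 and 1, and 9 fell by less than 0.5. In summed derived CPM, the 42 genes held 1.29% of the total after heat shock, against 1.94% under optimal growth. The genes called higher were ADE16, URA10, URA8 and RNR3. SHM2, FCY2 and BAS1 were not called.

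**Figure D1:**
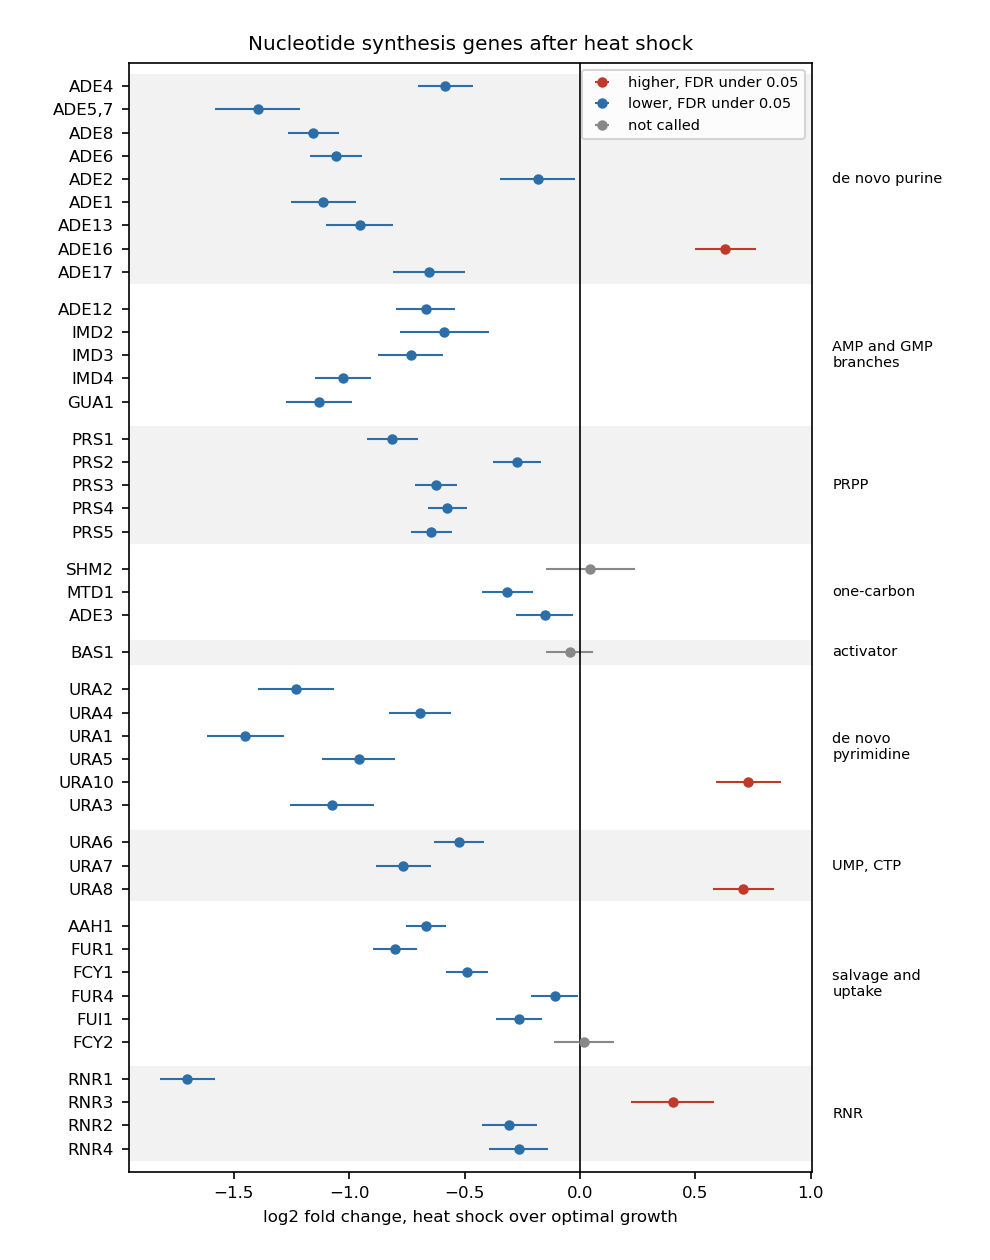
Log2 fold change, heat shock divided by optimal growth, for the 42 genes, grouped by role. Points are the deposited values and bars the 95% interval from the implied SE; 35 genes lie to the left of 0 and are called lower, 4 are called higher, and grey points mark the 3 genes not called.

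In the purine pathway to IMP, 8 of 9 genes were lower and ADE16 was higher. The median log2 fold change was -0.95. ADE5,7, which encodes the bifunctional enzyme of the glycinamide ribotide and aminoimidazole ribotide synthase steps, fell most, with a log2 fold change of -1.40 (SE 0.094, FDR 9.56e-49). Its derived level was 190 CPM per kilobase after heat shock, against 499.8 under optimal growth. It lies on chromosome VII from 56482 to 58890 of the R64 assembly, on the plus strand, in 1 exon. ADE8, the glycinamide ribotide transformylase, had a log2 fold change of -1.16 (SE 0.056). ADE1, the SAICAR synthetase, was at -1.11 (SE 0.071), and ADE6, the FGAM synthetase, was at -1.06 (SE 0.057). These 4 genes were each called lower by more than 1 on the log2 scale. ADE13, the adenylosuccinate lyase that also serves the AMP branch, fell by 0.95 (SE 0.075).

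Other steps of the pathway fell less. ADE4, the amidotransferase of the first committed step, fell by 0.58 on the log2 scale (SE 0.061). ADE2, the aminoimidazole ribotide carboxylase whose loss colours colonies red, fell by 0.18 (SE 0.083, FDR 0.0381), the smallest change of the pathway. It stood at 223 CPM per kilobase after heat shock, against 253 under optimal growth. ADE2 and ADE1 encode the enzymes of consecutive steps, and their 95% intervals of log2 fold change, -0.34 to -0.02 and -1.25 to -0.97, did not overlap. The last steps to IMP are carried out by either of a pair of isozymes. ADE17 fell by 0.65 (SE 0.079) and ADE16 was higher by 0.63 (SE 0.067).

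The 6-base core TGACTC, which both Bas1 and the amino acid regulator Gcn4 are known to bind, was searched on both strands from 250 bases before to 50 bases after each gene start. Gene starts in this annotation are start codons for all 42 genes. The core was present at 12 of the 42 genes, 28.6%, against 8.24% of 5706 promoters. The holders were ADE1, ADE2, ADE3, ADE5,7, ADE8, ADE12, ADE13, ADE17, MTD1, SHM2, URA4 and URA10. The windows below are shown because genes with this shared core spanned most of the range of responses. They are from RefSeq R64, written 5′ to 3′ on the strand of the gene, with the core, or its reverse complement, in capitals.
ADE5,7 (chrVII:56289-56312, plus strand): agtgccgacTGACTCgtgtcctgg
ADE8 (chrIV:1289012-1289035, minus strand): cgttgctagTGACTCtgacctgtt
ADE1 (chrI:169149-169172, plus strand): gagtcagtcTGACTCttgcgagag
ADE13 (chrXII:844057-844080, plus strand): ccgcgagcaGAGTCAaacttcaaa
ADE17 (chrXIII:509443-509466, minus strand): gaaatgaatTGACTCctctcataa
ADE2 (chrXV:566330-566353, minus strand): ctaagtgatTGACTCttgctgacc
SHM2 (chrXII:259614-259637, minus strand): ataaaggttTGACTCtatctcttg
URA10 (chrXIII:807763-807786, minus strand): ctctacaccTGACTCacatgacag

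Of these, ADE5,7 and ADE8 had log2 fold changes of -1.40 and -1.16, whereas ADE2 was at -0.18, SHM2 was at 0.05 and not called, and URA10 was higher by 0.73. ADE5,7, ADE8, ADE1, ADE2 and URA10 held the core at more than a single position. The median log2 fold change was -0.66 for the 12 genes with the core and -0.60 for the 30 genes without it. Over all promoters the medians were 0.02 with the core and 0.02 without it. ADE4, ADE6 and ADE16 had no match in this window.

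From IMP onward, all 5 genes of the AMP and GMP branches were lower, with a median log2 fold change of -0.73. GUA1, the GMP synthase, fell by 1.13 on the log2 scale (SE 0.073, FDR 5.75e-53). GUA1 stood at 238 CPM per kilobase after heat shock, against 522 under optimal growth. ADE12, the adenylosuccinate synthase that opens the AMP branch, fell by 0.67 (SE 0.064). IMP dehydrogenase, the entry to GMP, is encoded by the closely related genes IMD2, IMD3 and IMD4. Their log2 fold changes were -1.03 for IMD4 (SE 0.062), -0.73 for IMD3 (SE 0.072) and -0.59 for IMD2 (SE 0.098). The predicted proteins of IMD3 and IMD2 are 92.5% identical. Of the 50-base words of IMD2, 33.7% occur elsewhere in the genome, as do 16.6% of those of IMD3 and 5.53% of those of IMD4. How reads of shared words were assigned is not given in the sources used here, so the differences among the IMD genes are uncertain. IMD4 is the only member with an intron, and the annotated small nucleolar RNA SNR54 lies within that intron on the same strand. The summed level of the 3 genes was 783 CPM per kilobase after heat shock, against 1334 under optimal growth.

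The 5 PRPP synthetase genes supply the substrate of both pathways, and all 5 were lower. PRS1 was the most abundant per kilobase and fell most, by 0.81 on the log2 scale (SE 0.056). PRS5, PRS3 and PRS4 fell by 0.64, 0.62 and 0.57, with overlapping 95% intervals. PRS2 fell by 0.27 (SE 0.053), with an interval of -0.38 to -0.17 that overlapped none of the other 4. PRS2 and PRS4 encode proteins that are 89.9% identical, and neither gene shares a 50-base word with another part of the genome. The family summed to 717 CPM per kilobase after heat shock, against 1130.4 under optimal growth.

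The one-carbon enzymes, which provide formyl groups for purine rings, had a median log2 fold change of -0.15. SHM2, the cytosolic serine hydroxymethyltransferase, had a log2 fold change of 0.05 (SE 0.098, FDR 0.687). It was at 718 CPM per kilobase after heat shock, against 696 under optimal growth, and had the highest level of all 42 genes after heat shock. ADE3, the trifunctional tetrahydrofolate synthase, fell by 0.15 (SE 0.063, FDR 0.0228). MTD1, the NAD-dependent methylenetetrahydrofolate dehydrogenase, fell by 0.32 (SE 0.057). The transcript of BAS1, which encodes the activator of the ADE genes, had a log2 fold change of -0.05 (SE 0.051, FDR 0.426). BAS1 stood at 53.9 CPM per kilobase after heat shock, against 55.6 under optimal growth. Its partner gene PHO2, named here after its value was seen, was higher by 0.18 on the log2 scale (FDR 0.000899).

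**Figure D2:**
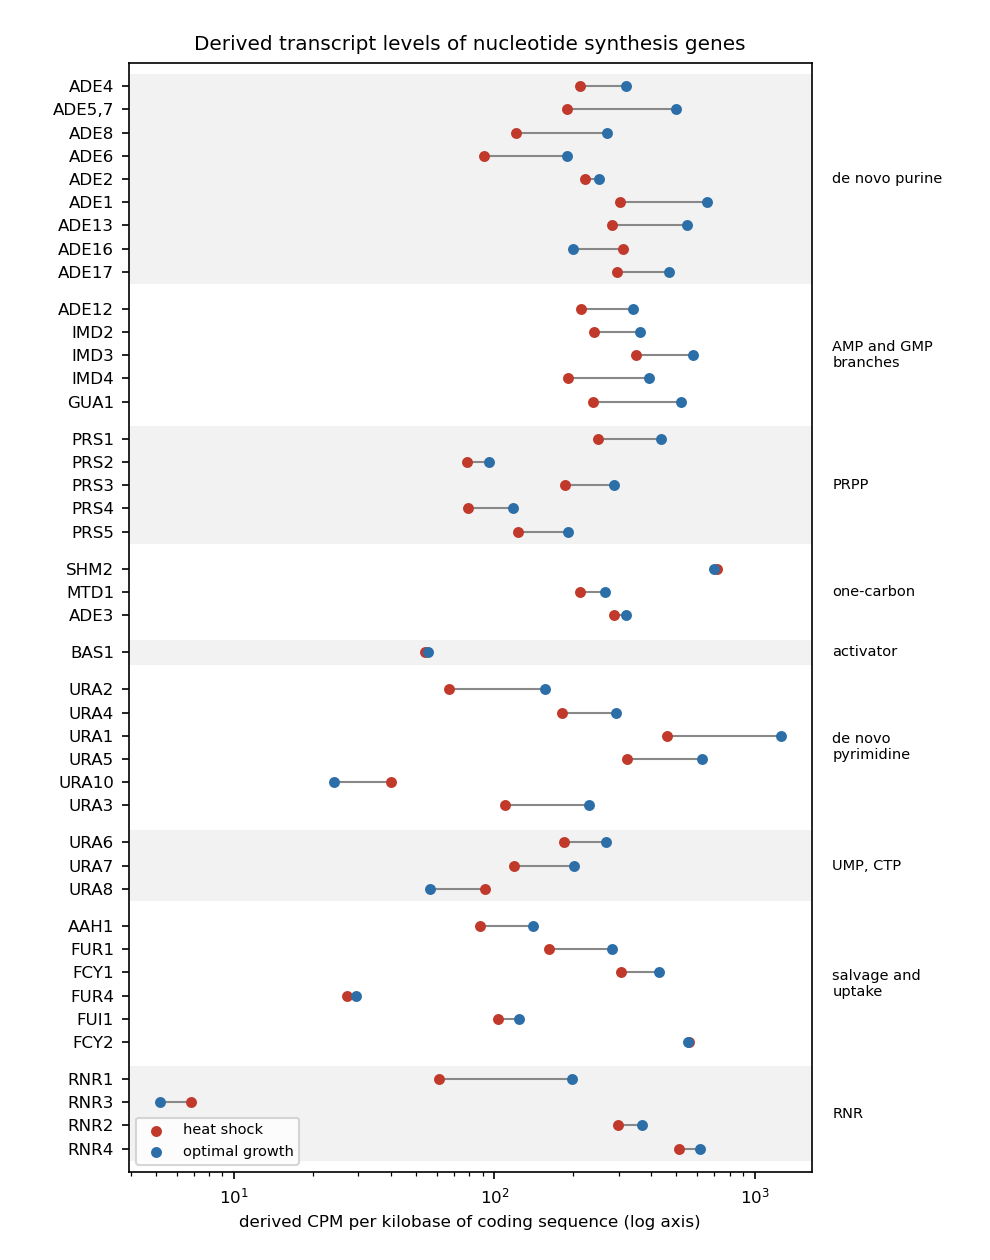
Derived CPM per kilobase of coding sequence of each gene, on a log axis, after heat shock (red) and under optimal growth (blue), with no replicate error since the table gives no value per library. URA1 had the highest level under optimal growth and RNR3 the lowest in both groups; the red point lies to the left of the blue for every gene called lower.

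Pyrimidine synthesis was lower in 5 of 6 genes to UMP, with a median log2 fold change of -1.02. The median was -0.96 without URA3, which the labels name as deleted. URA1, the dihydroorotate dehydrogenase, fell by 1.45 on the log2 scale (SE 0.085, FDR 9.32e-64). Its derived level was 461 CPM per kilobase after heat shock, against 1259 under optimal growth, the highest of all 42 genes in that group. The gene spans 25215 to 26159 of chromosome XI, plus strand, in 1 exon. URA2, which encodes the large bifunctional enzyme of the first steps and is the target of feedback by UTP, fell by 1.23 (SE 0.084). URA4, the dihydroorotase, fell by 0.69 (SE 0.069). Orotate phosphoribosyltransferase is encoded by URA5 and URA10. URA5 fell by 0.96 (SE 0.080), and URA10 was higher by 0.73 (SE 0.072).

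Ppr1 is known to bind a pair of CGG half-sites spaced by 6 bases, CGGNNNNNNCCG. This arrangement was present at 4 of the 42 genes, 9.52%, against 1.31% of 5706 promoters. The holders were URA1, URA3, URA4 and FCY1. They are shown because the 3 URA genes are consecutive or near-consecutive steps of a single pathway and all fell, as did 83.3% of the 42 genes. URA3 is named in the labels as deleted in this strain, and its window is that of the reference genome. Capitals mark the half-sites with their spacer, 5′ to 3′ on the strand of the gene, from RefSeq R64.
URA1 (chrXI:24994-25023, plus strand): tttcttcacCGGGCTTTGCCGaaggttatt
URA1 (chrXI:25025-25054, plus strand): cacgatcttCGGCATTCGCCGaaaattttt
URA3 (chrV:116006-116035, plus strand): tttttgattCGGTAATCTCCGagcagaagg
URA4 (chrXII:963646-963675, plus strand): ttcatcattCGGAGAATTCCGatgaatcgg
FCY1 (chrXVI:677016-677045, plus strand): ttgcaggggCGGTAGTACCCGgagaccctg

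URA1, with 2 such matches, had a log2 fold change of -1.45, and URA3 and URA4, with a single match each, were at -1.07 and -0.69. FCY1, the cytosine deaminase of the salvage route, fell by 0.49 (SE 0.047). URA2, URA5 and URA10 had no match in this window, and their log2 fold changes were -1.23, -0.96 and 0.73. The median was -0.88 for the 4 genes with the arrangement and -0.60 for the members without it. That median of -0.88 includes URA3, which the labels name as deleted. The remaining holders URA1, URA4 and FCY1 were at -1.45, -0.69 and -0.49, with URA4 in the middle. Over all promoters the medians were -0.02 with it and 0.02 without it. PPR1 itself, named here after its value was seen, fell by 0.20 on the log2 scale (FDR 0.00111).

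URA3, the orotidine monophosphate decarboxylase, is named in the labels as deleted in this strain, yet reads were counted to it. Its derived level was 109.8 CPM per kilobase after heat shock, against 231 under optimal growth. Its log2 fold change was -1.07 (SE 0.094). URA3 spans 116167 to 116970 of chromosome V, plus strand. None of its 50-base words occurs elsewhere in the genome. Its upstream neighbour GEA2, which ends 367 bases away on the same strand, was at 29.3 CPM per kilobase after heat shock, against 40.9 under optimal growth, and fell by 0.48 on the log2 scale (FDR 3.02e-19). Its downstream neighbour TIM9, which starts 241 bases away on the same strand, was at 439.8 CPM per kilobase after heat shock, against 502 under optimal growth, and fell by 0.19 (FDR 0.0008). The next genes out, YEL023C and the RNase P RNA gene RPR1, were at or below 18.6 CPM per kilobase in both groups. The level of URA3 per kilobase was thus above that of GEA2 and below that of TIM9 in both groups. Which part of URA3 the reads cover cannot be read from the table. Without URA3, 34 of the 41 remaining genes were lower.

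Beyond UMP, URA6, the UMP kinase, fell by 0.52 on the log2 scale (SE 0.056). CTP synthase is encoded by a pair of isozyme genes. URA7 fell by 0.76 (SE 0.061), and URA8 was higher by 0.71 (SE 0.068).

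Among the salvage enzymes, FUR1, the uracil phosphoribosyltransferase, fell by 0.80 on the log2 scale (SE 0.049), and AAH1, the adenine deaminase, fell by 0.67 (SE 0.045). The uptake genes changed less. FUI1, the uridine permease, fell by 0.26 (SE 0.051). FUR4, the uracil permease, fell by 0.11 (SE 0.053, FDR 0.0482), the member nearest to the threshold among those called. FCY2, the purine and cytosine permease, had a log2 fold change of 0.02 (SE 0.067, FDR 0.835). FCY2 stood at 558 CPM per kilobase after heat shock, against 552 under optimal growth.

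Ribonucleotide reductase is built from large subunits, Rnr1 or the minor Rnr3, and the small subunits Rnr2 and Rnr4. RNR1 had the lowest log2 fold change of all 42 genes, -1.70 (SE 0.061, FDR 1.40e-171), which ranked 25 from the bottom among the 5793 features. Its derived level was 61.1 CPM per kilobase after heat shock, against 199 under optimal growth. It spans 298950 to 301616 of chromosome V, plus strand, in 1 exon. RNR3, known as the damage-inducible large subunit gene, was higher by 0.40 (SE 0.092, FDR 2.22e-05) from a low level, with 6.84 CPM per kilobase after heat shock, against 5.17 under optimal growth. Both small subunit genes were lower. RNR2 fell by 0.31 (SE 0.061) and RNR4 by 0.26 (SE 0.065), and their intervals overlapped. After heat shock the large subunit genes summed to 68.0 CPM per kilobase, against 204 under optimal growth. The small subunit genes summed to 809 after heat shock, against 983 under optimal growth.

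Each of the 4 genes that rose encodes an isozyme whose partner fell. In every such pair the riser was the less abundant gene under optimal growth. The proteins of these pairs were between 74.1% and 85.1% identical, and none of the 8 genes shares a 50-base word with another part of the genome. ADE16 made up 51.2% of the summed ADE16 and ADE17 level per kilobase after heat shock, against 30.1% under optimal growth. URA8 made up 43.7% of the CTP synthase transcripts after heat shock, against 21.8% under optimal growth. URA10 made up 11.0% of its pair after heat shock, against 3.71% under optimal growth. RNR3 made up 10.1% of the large subunit transcripts after heat shock, against 2.54% under optimal growth. The riser minus its partner differed by 1.28 on the log2 scale for ADE16, 1.69 for URA10, 1.47 for URA8 and 2.10 for RNR3. These 4 pairs were singled out after their values were seen, and the differences between genes were not tested.

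**Figure D3:**
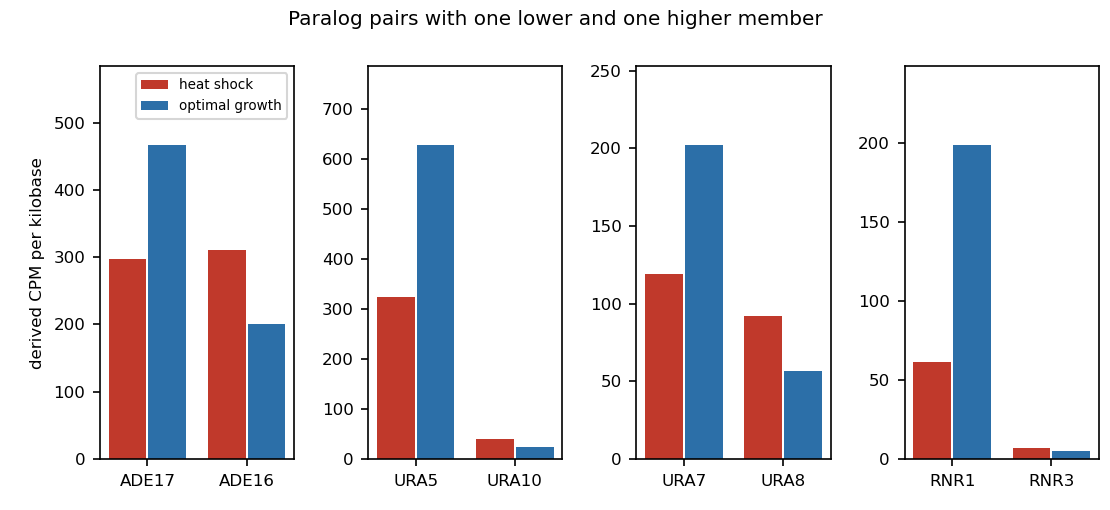
Derived CPM per kilobase of the 4 isozyme pairs in which a gene rose, after heat shock (red) and under optimal growth (blue), each pair on its own linear axis from 0. ADE16 reached 311 and passed ADE17 at 297 after heat shock, whereas URA10, URA8 and RNR3 stayed below their partners.

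Since a gene of each of these pairs rose, their sums by arithmetic fell less than the partner alone. ADE16 and ADE17 together were at 608 CPM per kilobase after heat shock, against 668 under optimal growth. URA7 and URA8 together were at 211 after heat shock, against 259 under optimal growth. URA5 and URA10 together were at 363 after heat shock, against 652 under optimal growth. RNR1 and RNR3 together were at 68.0 after heat shock, against 204 under optimal growth. In the other pairs both genes moved the same way. FUR4 and FUI1, with proteins that are 51.2% identical, both fell.

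Other motifs known from yeast stress and growth promoters were searched in the same windows on both strands. The RRPE element AAAAATTTT, bound by Stb3 and common at ribosome assembly genes, was present at 10 of the 42 genes, 23.8%, against 7.26% of all promoters. Its holders were ADE5,7, FUI1, FUR1, FUR4, GUA1, PRS1, PRS2, PRS5, URA1 and URA7. All of them were called lower, as were 83.3% of the 42 genes. The match of PRS1 lay after the gene start. Their median log2 fold change was -0.78, against -0.58 for the members without it, and over all promoters the medians were -0.38 with it and 0.04 without it. The PAC element GCGATGAG, bound by Dot6 and Tod6, was present at AAH1, GUA1 and IMD4, 7.14% against 4.12% of promoters. These 3 genes had a median log2 fold change of -1.03, and all promoters with the element had a median of -0.54. GUA1 alone held both elements. They are shown for GUA1, which fell by 1.13, as 2 separate windows that share part of their flanks, with the element or its reverse complement in capitals.
GUA1 PAC (chrXIII:701576-701601, plus strand): ttttctttgGCGATGAGcatcgagaa
GUA1 RRPE (chrXIII:701557-701583, plus strand): caggaaatgAAAATTTTTtttttcttt

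The stress element AGGGG, bound by Msn2 and Msn4, was present at 10 of the 42 genes, 23.8%, against 21.9% of all promoters. Its holders included the risers URA8 and URA10 and also 8 genes that fell, among them ADE5,7. The only matches of ADE2, PRS5 and URA2 lay after the gene start. In windows ending at the gene start, 7 of the 42 genes held it, against 19.1% of promoters. The median log2 fold change was -0.40 for members with the element and -0.66 for those without it. Over all promoters the medians were 0.22 with it and -0.03 without it. The heat shock element core TTCNNGAA, bound by Hsf1, was present at 8 genes, 19.0%, against 13.1% of promoters. Of the risers, URA10 held it, and the other holders, AAH1, ADE2, FUR1, PRS3, URA1, URA4 and URA6, were called lower. The median log2 fold change was -0.64 for members with this core and -0.62 for those without it. Over all promoters the medians were 0.03 with it and 0.01 without it. The MluI cell cycle box ACGCGT was present at FCY2 and RNR3 within this window, 4.76% against 3.19% of promoters. A match is a string of letters and was not tested as a binding site.

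**Figure D4:**
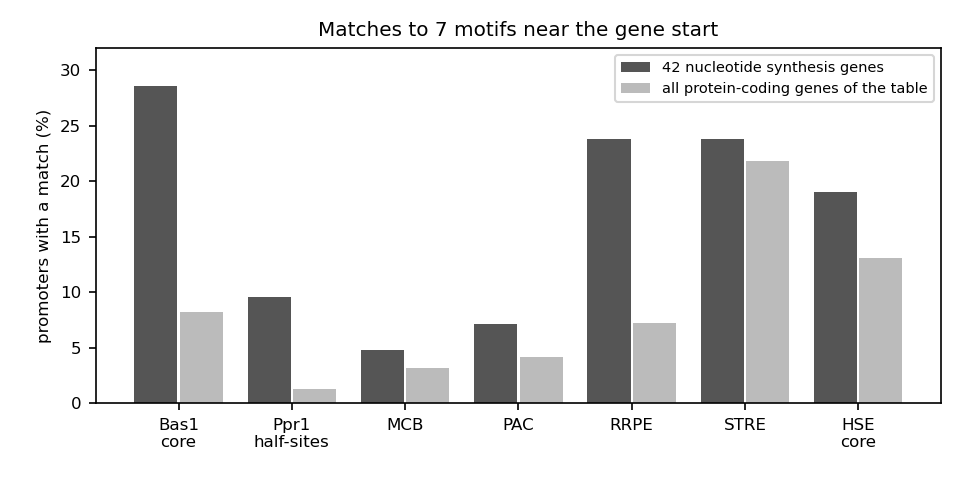
Percentage of promoters with a match to each of 7 motifs, for the 42 genes (dark) and for all 5706 protein-coding genes of the table (light), in windows from 250 bases before to 50 bases after the gene start. The Bas1 core (28.6% against 8.24%), the Ppr1 half-sites (9.52% against 1.31%) and RRPE (23.8% against 7.26%) differ most, and the stress element stood at 23.8% against 21.9%.

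Further lists of related genes were counted beside the 36.6% of all features that were lower and the 38.6% that were higher. Of 30 other salvage and interconversion genes, 24 were lower, 4 were higher and 2 were not called, with a median log2 fold change of -0.44. HPT1, the hypoxanthine-guanine phosphoribosyltransferase, fell by 1.10 on the log2 scale (SE 0.052). GUD1, the guanine deaminase, was higher by 1.24 (SE 0.081). Of 13 genes of folate metabolism and glycine cleavage, 5 were lower, 3 were higher and 5 were not called, with a median of -0.08. DFR1, the dihydrofolate reductase, fell by 1.54 (SE 0.073). MET13, a methylenetetrahydrofolate reductase, was higher by 0.71. Histidine synthesis, which shares an intermediate with purine synthesis, had 4 of 7 genes lower and 1 higher. HIS1, its first enzyme, fell by 0.85, and HIS2 was higher by 0.35.

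Regulators of these pathways were counted separately. Of 11 regulator genes, 2 were lower, 5 were higher and 4 were not called, with a median of 0.05. WTM1, whose product is known to hold the small subunits of ribonucleotide reductase in the nucleus, was higher by 1.11 on the log2 scale (SE 0.079). The checkpoint kinase gene RAD53 fell by 0.37 (SE 0.056).

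Genes of RNA polymerases and of DNA replication were also counted. All 19 genes of RNA polymerase I and III subunits were lower, with a median log2 fold change of -0.68. RPA190, the largest subunit of RNA polymerase I, fell by 1.30, and RPA14 by 0.18. Of 44 DNA replication genes, 24 were lower, 6 were higher and 14 were not called, with a median of -0.15. POL1, the catalytic subunit of DNA polymerase alpha, fell by 1.26, and ORC4 was higher by 0.39. No test was made between lists.

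**Figure D5:**
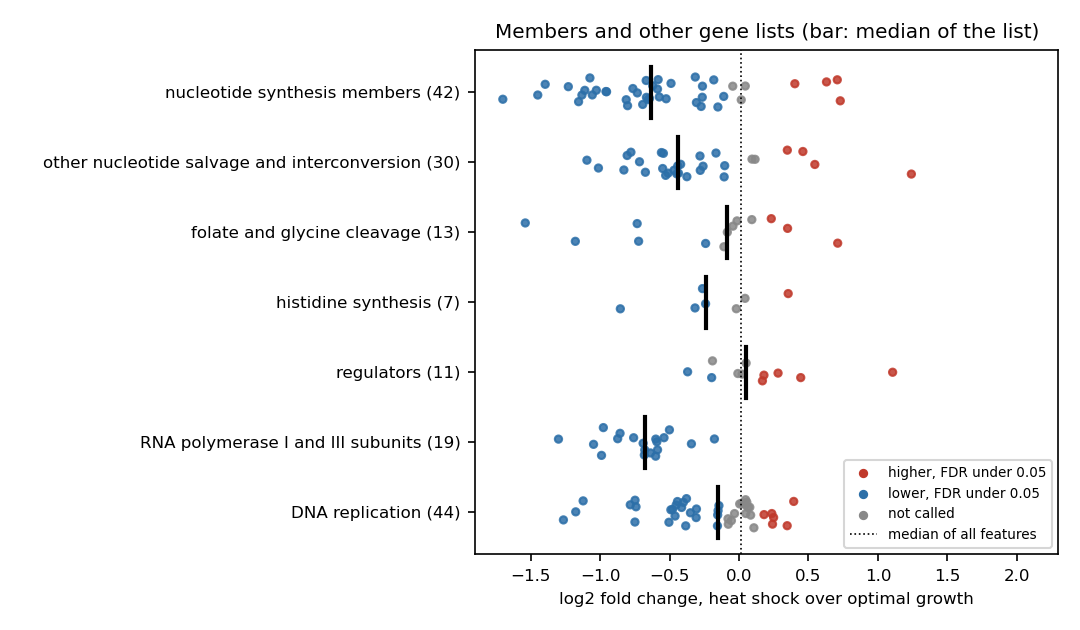
Log2 fold change, heat shock divided by optimal growth, for the 42 genes and 6 further lists, with each point a gene, the number of genes in brackets, the black bar the median of the list and the dotted line the median of all features. The nucleotide genes (median -0.63) and the RNA polymerase I and III subunits (-0.68) lie lowest, and the regulators (0.05) lie around 0.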

How the data were processed

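RNA-Seq of polyadenylated RNA was carried out on 3 heat shock and 3 optimal growth libraries. Per the methods, the authors aligned reads with kalign to the repeat-masked S288C R64 genome and compared treatments through the edgeR step of the Trinity pipeline. The counter, its use of strand and multimapping reads, the filter and the dispersion setting are not given in the sources used here. The deposited table holds, for each feature, a log2 fold change, a log2 mean CPM, a p-value and its FDR, all from the authors' own comparison. It holds no counts, so no model was refitted and depth is unknown. The deposited FDR equals a Benjamini-Hochberg adjustment of the p-values over all 5793 features.

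CPM per group and implied standard errors were derived from these columns in Python 3.11.15 with pandas 2.3.3, numpy 2.4.6 and scipy 1.17.1, and tested on simulated data. Of the features, 5715 matched RefSeq R64 by locus tag and 76 by symbol, and 2 did not match. ADE5,7 is annotated without its comma. Promoter windows and the share of 50-base words found elsewhere were read from the R64 genome. Translated coding sequences were aligned with Biopython 1.88. Named genes were all members, the neighbours of URA3, and the highest and lowest called gene of each further list. PPR1 and PHO2 were named after their values were seen. Alternatives were other thresholds, other multiple-testing corrections, an abundance minimum, a filter at 10% of shared words, other centrings and promoter windows ending at the gene start. Leaving out URA3 was added after seeing the data. The members and lists were chosen with earlier results of these data known. Because the libraries of a group were aliquots, p-values measure only the spread between them.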

Additional observations from a re-analysis of the deposited data

How the results depend on the processing

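With a minimum change of 1 on the log2 scale, 0 members were higher and 10 were lower. Among genes whose log2 mean CPM was 5 or more, 2 members were higher, since RNR3 and URA10 lie below that abundance. The mean log2 fold change of the members was -0.56, against the median of -0.63. At an FDR of 0.01 or 0.001, or with the Benjamini-Yekutieli correction, 4 members were higher and 32 lower, and with Bonferroni 3 and 31. Without IMD2 and IMD3, which have at least 10% of their words elsewhere, 33 were lower, and without URA3 34. Centring on the median of all features subtracts 0.02 from every log2 fold change, and equalising totals subtracts -0.05. Of the 84 resulting values for single genes, that of BAS1, which was not called, changed sign, to 0.0046 with equal totals. Of 46 medians of role groups, 6 moved, and in windows ending at the gene start the stress element was at 7 members, RRPE at 9 and the heat shock element core at 7, with the other 4 motif counts as given. No paired analysis was possible because per-library values are not part of the deposited comparison, and for the same reason no library could be left out. Group levels rest on the assumed plain average.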
